A study of Mus musculus with 6 samples.

Results

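The genes described here encode the IκB proteins and the NF-κB subunits, the inhibitors and the DNA-binding parts of one transcription factor system. All probes that the platform annotation pairs with 10 member symbols (Nfkbia, Nfkbib, Nfkbid, Nfkbie, Nfkbiz, Bcl3, Nfkb1, Nfkb2, Rela and Relb) were followed. They were 11 probes of 9 genes, out of 45281 probes and 19057 named genes on the array. Nfkbia and Nfkbie had 2 probes each, the other 7 genes had 1, and Nfkb1 was not analysed here. All 11 probes passed the filter on dim probes.

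The study measured RNA of male C57Bl/6J mouse hepatocytes in primary culture on 6 Illumina bead arrays. The 3 groups of 2 arrays were unstimulated cells, cells exposed to 2 ng/mL recombinant murine TNFα for 2 hours, and cells exposed to that dose for 2 days. All groups shared collagen-coated plates and Williams' E medium with 5% fetal calf serum, 50 nM dexamethasone, a synthetic glucocorticoid, and 1 nM insulin. The labels give neither the animals' age, nor the time that unstimulated cells spent in culture, nor whether same-group arrays are from different animals or culture dishes. P-values therefore reflect array-to-array spread alone, possibly of technical origin, and 2 days of exposure and 2 days of culture cannot be told apart.

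NF-κB is a dimer of Rel-domain proteins that waits in the cytoplasm, bound to an IκB. When TNFα binds its receptor, the IκB kinase complex marks the classical inhibitors IκBα, IκBβ and IκBε, encoded by Nfkbia, Nfkbib and Nfkbie, for destruction, and the dimer enters the nucleus. Several of the genes it switches on encode its own inhibitors and subunits, which makes the family a textbook feedback loop. Bcl-3, IκBζ (Nfkbiz) and IκBNS (Nfkbid) are nuclear relatives that modulate dimers already on DNA. Nfkb2 encodes p100, a precursor that is itself inhibitory until it is cut to p52, and RelB is the usual partner of p52. In the liver this system protects hepatocytes from death by TNFα and drives their acute inflammatory response.

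NF-κB binds decameric κB elements, so the promoters of the members were read for them. The RefSeq promoter table (build GRCm38.p6; 300-base windows, 250 bases before and 50 after each annotated start) held 11 windows of 7 members. Nfkbiz, Relb and Nfkb1 were not among them. The κB consensus was searched on both strands as 3 guanines, a purine, any 2 bases, 2 pyrimidines and 2 cytosines, and overlapping matches were counted separately. It occurred in 8.46% of all 32851 windows, and 1.22% held at least 2 matches. Among the members, 7 of 11 windows and 5 of 7 genes held a match, and windows of Nfkb2 and Nfkbid held at least 2. The shares above are per window, and Nfkbid and Nfkb2 had 3 windows each, so no share stands beside the gene count. Each distinct element is given here, since it is the feature that these 5 genes share, in 30 bases of the gene's strand, 5′ to 3′, with the matching bases in capitals.
Nfkbia, bases -29 to -20 from the start, chr12:55492657-55492686, minus strand: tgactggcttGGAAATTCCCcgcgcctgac
Nfkbie, bases -106 to -97, chr17:45555584-45555613, plus strand: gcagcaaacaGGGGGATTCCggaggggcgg
Bcl3, bases 3 to 12 after the start, chr7:19822734-19822763, minus strand: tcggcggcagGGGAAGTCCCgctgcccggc
Nfkbid, listed start 2, bases -226 to -217, chr7:30422170-30422199, plus strand: gccccgccctGGGACTTCCCagagcaccac
Nfkbid, listed start 2, bases -181 to -172, chr7:30422215-30422244, plus strand: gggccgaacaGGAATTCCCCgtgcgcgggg
Nfkb2, listed start 1, 2 overlapping matches at bases -39 to -29, chr19:46304688-46304717, plus strand: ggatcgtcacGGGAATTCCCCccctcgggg
Nfkb2, listed start 1, bases -11 to -2, chr19:46304716-46304745, plus strand: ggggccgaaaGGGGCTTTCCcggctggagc
Nfkb2, listed start 2, bases -236 to -227, chr19:46305449-46305478, plus strand: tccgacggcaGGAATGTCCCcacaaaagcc
Nfkb2, listed start 3, bases -225 to -216, chr19:46305695-46305724, plus strand: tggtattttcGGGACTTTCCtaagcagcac

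The Nfkb2 windows of starts 2 and 3 overlap, so that the last element also lies 11 to 20 bases after start 2. The windows of Nfkbib and Rela and of starts 1 and 3 of Nfkbid held no match, which says only that these letters are not in those windows. A match is a string of letters and was not tested as a binding site. Nfkbia, whose brighter probe had the largest rise of the family in the deposited values, is shown with its 250 bases upstream of the start at chr12:55492648-55492897 on the minus strand, the same match in capitals.
Nfkbia upstream: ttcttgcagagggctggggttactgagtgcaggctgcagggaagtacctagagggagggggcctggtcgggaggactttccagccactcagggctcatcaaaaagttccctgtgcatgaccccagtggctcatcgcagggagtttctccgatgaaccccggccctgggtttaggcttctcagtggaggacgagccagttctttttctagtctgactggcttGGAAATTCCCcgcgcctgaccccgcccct

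**Figure D1:**
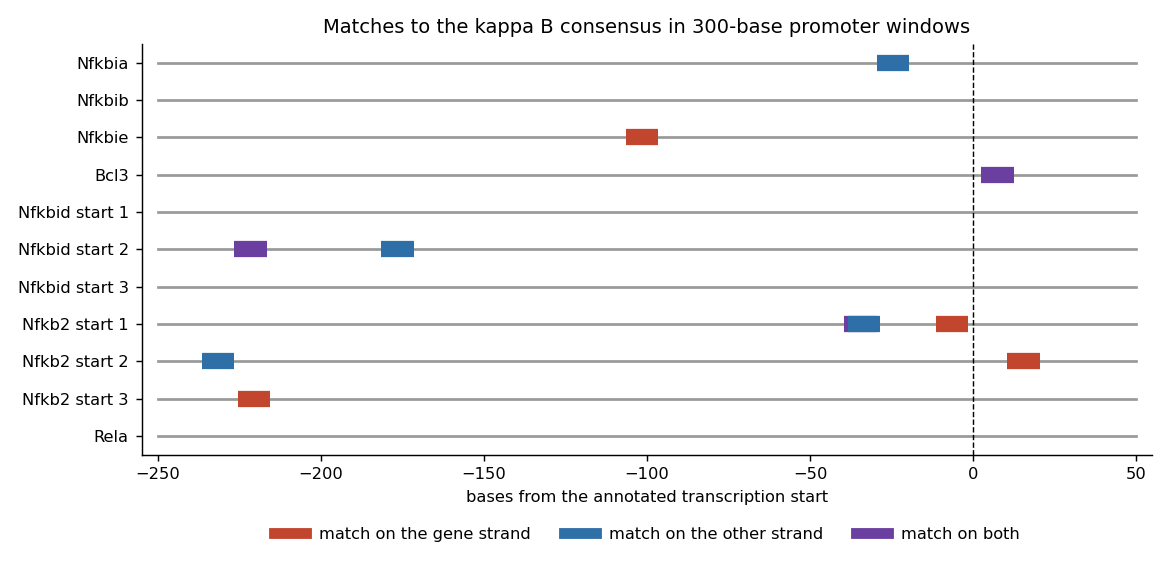
Position of each κB consensus match in the 11 promoter windows of 7 members, in bases from the annotated start (0), with the strand of the match in colour. Matches lie within 40 bases upstream of the start in Nfkbia and at start 1 of Nfkb2, further upstream in Nfkbie, Nfkbid and at starts 2 and 3 of Nfkb2, and just after the start in Bcl3 and at start 2 of Nfkb2, while Nfkbib and Rela have none in the window.

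The first comparison set 2 hours of TNFα against unstimulated cells. Of the 11 probes, 9 rose, from 7 of the 9 genes, and 0 fell, where 1.24% of the 26272 passing probes rose and 0.651% fell (limma, Benjamini-Hochberg adjusted p under 0.05). Nfkbib and Nfkbid were the genes without a call. The median log2 change was 0.67 over the 11 probes and -0.01 over all passing probes. On all 11 probes both 2 hour arrays were above both unstimulated arrays, which held for 17.7% of all passing probes. From a lowest deposited value of 96.5 it was inferred that background had not been subtracted, in which case folds of dim probes are understated. Values are therefore also given after a normexp correction, which models and removes background. After normexp 7 probes were called, against 0.377% of passing probes called higher.

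Among the classical inhibitors, Nfkbia and Nfkbie rose. The brighter Nfkbia probe (ILMN_3001914) read 633 and 693 in unstimulated cells, 3732 and 3430.1 at 2 hours and 1610.1 and 1711 at 2 days. The 3 groups did not overlap, with 2 hours highest and unstimulated lowest. The mean went from 663 ± 42.5 to 3581 ± 213 at 2 hours (SD, n = 2 each), a 5.4-fold rise (log2 2.43, SE 0.10, adjusted p = 3.79e-14), or 6.1-fold after normexp. Among all 26272 passing probes this log2 change ranked 12. The dimmer Nfkbia probe (ILMN_1218605) read 162 and 166 unstimulated, 263 and 231 at 2 hours, and 199 and 163 at 2 days. Its 2 hour arrays were the highest, and its 2 day arrays overlapped the unstimulated ones. It rose 1.5-fold at 2 hours (log2 0.59, SE 0.11, adjusted p = 0.00215), and lost the call after normexp (2.13-fold, adjusted p = 0.146) and without replicate 1 of the 2 hour group (log2 0.50). The 2 probes of this gene thus moved the same way by different amounts, and the array median of 143 lay close under the unstimulated level of the dimmer one.

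Nfkbie, which encodes IκBε, gave a similar picture. Its brighter probe (ILMN_2690551) read 175 and 167 unstimulated, 741 and 619 at 2 hours, and 281 and 269 at 2 days. The groups were again fully separated in the same order. The 2 hour rise was 3.95-fold (log2 1.98, SE 0.10, adjusted p = 3.64e-12) and 7.32-fold after normexp, above the 6.1-fold of Nfkbia. The order of these 2 rises therefore changed with the background correction, and their difference was not tested. The dimmer Nfkbie probe (ILMN_1238752) read 135 and 146 unstimulated, 224 and 222 at 2 hours, and 145 and 151 at 2 days, and only its 2 hour arrays stood clear of the others. It rose 1.59-fold at 2 hours (adjusted p = 0.000109), or 2.7-fold after normexp.

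Nfkbib, which encodes IκBβ, was not called. Its arrays read 163 and 180.4 unstimulated, 206 and 205 at 2 hours, and 170.1 and 194 at 2 days. The 2 hour arrays were the highest and the other groups overlapped. The log2 change of 0.26 had a 95% interval of 0.05 to 0.47 and an adjusted p of 0.31. The rise was 1.2-fold on the deposited scale and 1.43-fold after normexp, without a call on either.

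Of the nuclear IκB genes, Nfkbiz and Bcl3 rose. Nfkbiz read 348 and 266 unstimulated, 811 and 906 at 2 hours, and 508 and 444 at 2 days. All groups were separated, although the unstimulated arrays differed from each other (307 ± 58.1, SD, n = 2). The 2 hour rise was 2.82-fold (log2 1.49, SE 0.12, adjusted p = 6.72e-09), or 3.62-fold after normexp. Bcl3, a nuclear cofactor of p50 and p52 dimers, read 505 and 534 unstimulated, 1062 and 1089 at 2 hours, and 598 and 585 at 2 days. Its 2 hour arrays stood far above the 4 others, and the 2 day arrays lay just above the unstimulated ones. The rise at 2 hours was 2.07-fold (log2 1.05, SE 0.10, adjusted p = 8.99e-08). Nfkbid read 154 and 137 unstimulated, 182 and 192 at 2 hours, and 152 and 142 at 2 days, with the unstimulated and 2 day arrays around the array median. Its log2 change of 0.36 at 2 hours (95% interval 0.15 to 0.57, adjusted p = 0.0701) passed only with trended and robust variances (adjusted p = 0.0312), and was 0.83 without a call after normexp.

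Relb had the largest rise of the subunits. It read 219 and 254 unstimulated, 832 and 854 at 2 hours, and 380.1 and 407 at 2 days. The groups did not overlap. The 2 hour rise was 3.57-fold (log2 1.84, SE 0.10, adjusted p = 1.06e-11), or 5.22-fold after normexp. Nfkb2 read 193 and 179 unstimulated, 278 and 312 at 2 hours, and 243 and 229 at 2 days, also without overlap but over a narrow range. It rose 1.59-fold at 2 hours (log2 0.67, SE 0.10, adjusted p = 0.000195), or 2.15-fold after normexp.

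Rela, the main activating subunit, changed least among the called genes. Its probe read 3475 and 3854 unstimulated, 5635 and 5004 at 2 hours, and 4352 and 3228 at 2 days. The 2 hour arrays were the highest, and the 2 day arrays lay on either side of both unstimulated ones. The rise at 2 hours was 1.45-fold (log2 0.54, SE 0.12, adjusted p = 0.0144). This probe was far above background, and normexp left its fold at 1.46 but not its call (limma adjusted p = 0.428). Its SE, which limma draws toward a spread common to all probes, went from 0.12 to 0.19. The call was also lost without unstimulated replicate 1 (log2 0.46) and without replicate 1 of the 2 hour group (log2 0.45), at an adjusted p threshold of 0.01, and in the fit on the mean of each gene's probes (adjusted p = 0.0613).

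**Figure D2:**
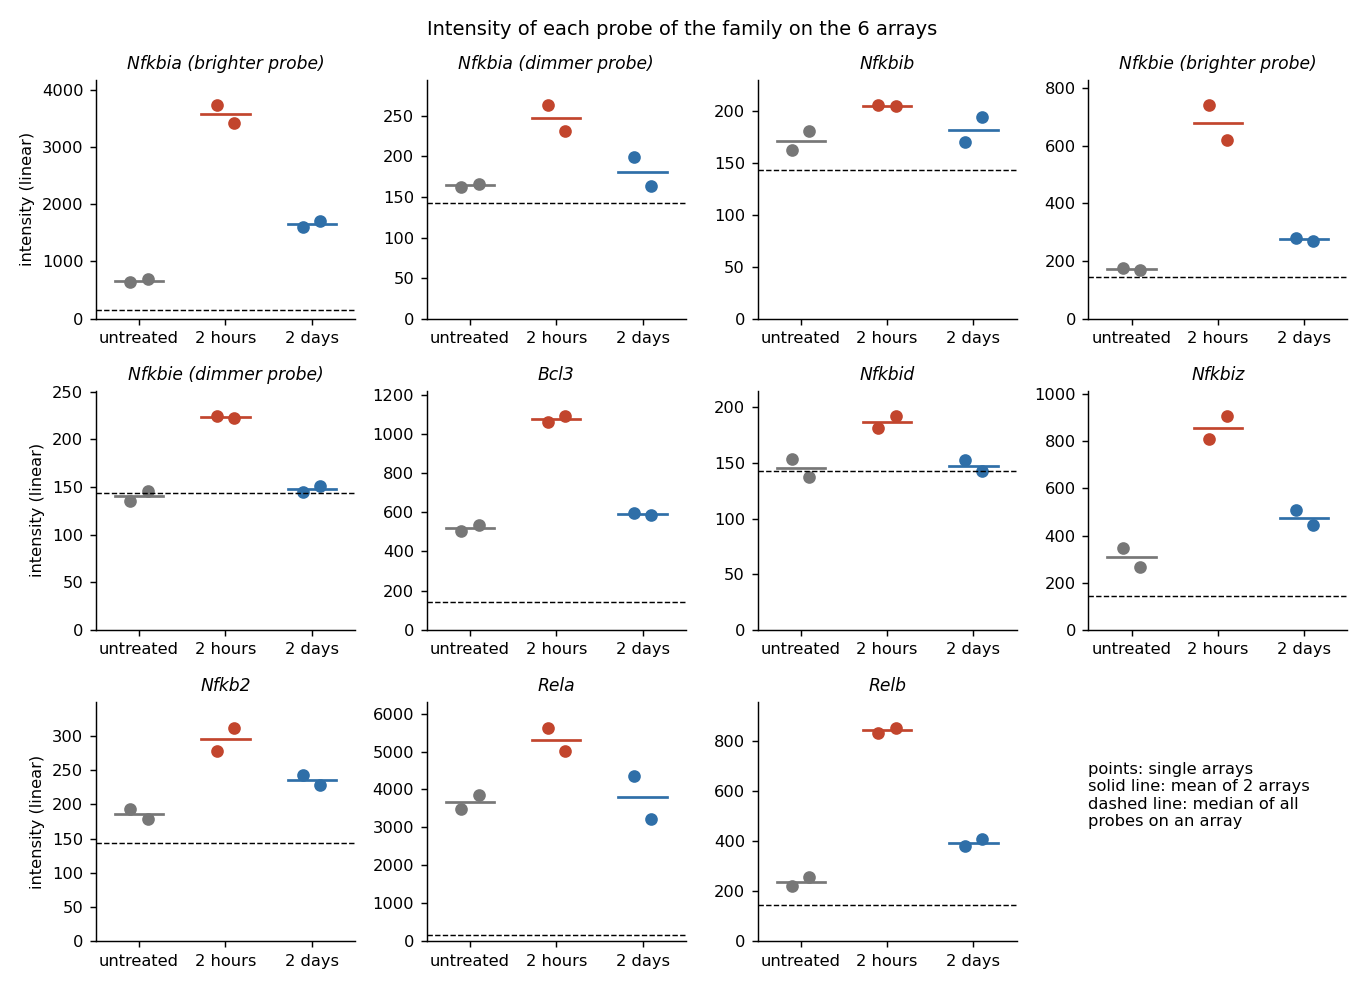
Deposited intensity on a linear scale for each of the 11 probes on the 6 arrays, with points for arrays, a solid line for the mean of 2 and a dashed line at the array median. The 2 hour arrays are the highest on all 11 probes, and the 2 day arrays lie between 2 hours and unstimulated without overlap on 6 probes.

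The second comparison set 2 days of TNFα against unstimulated cells. Of the 11 probes 5 were higher, 1 for each of Nfkbia, Nfkbie, Nfkbiz, Nfkb2 and Relb, and 0 were lower, against 4.96% of passing probes called higher and 4.67% lower. The median log2 change was 0.19 over the 11 probes. Both 2 day arrays were above both unstimulated arrays on 6 probes, the 5 called ones and Bcl3, as they were for 23.5% of all passing probes. After normexp 3 probes were called, those of Nfkbia, Nfkbie and Relb, where 1.34% of passing probes were called higher.

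The brighter Nfkbia probe, at 1660.3 ± 71.1 (SD, n = 2), was 2.5-fold above unstimulated cells (log2 1.32, SE 0.10, adjusted p = 1.41e-09). Relb was 1.67-fold higher (log2 0.74, SE 0.10, adjusted p = 1.61e-05), or 2.1-fold after normexp. The brighter Nfkbie probe was 1.61-fold higher (log2 0.68, SE 0.10, adjusted p = 5.53e-05), or 2.3-fold after normexp. These 3 were called under every alternative that was run. Nfkbiz was 1.56-fold higher (log2 0.64, SE 0.12, adjusted p = 0.000509), a call lost only after normexp (1.81-fold, adjusted p = 0.0844). Nfkb2 was 1.27-fold higher (log2 0.35, SE 0.10, adjusted p = 0.0291), and that call was lost after normexp (1.53-fold) and without any 1 of the 4 arrays compared (log2 0.29 to 0.40).

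The other members were not called at 2 days. Bcl3 had a log2 change of 0.19 (95% interval -0.01 to 0.39, adjusted p = 0.297) and Rela of 0.03 (95% interval -0.21 to 0.28, adjusted p = 0.934). For Nfkbid it was 0.02 (95% interval -0.19 to 0.23) and for Nfkbib 0.08 (95% interval -0.13 to 0.29). The dimmer probes of Nfkbia (0.13, 95% interval -0.09 to 0.36) and Nfkbie (0.07, 95% interval -0.13 to 0.27) did not pass either, unlike the brighter probes of the same genes. The 2 day calls of Nfkbia and Nfkbie thus each rest on 1 probe of 2.

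The third comparison set the exposures against each other, and shares its arrays with both comparisons above. At 2 days 10 of 11 probes were lower than at 2 hours and 0 were higher, against 5.49% of passing probes called lower and 6.09% higher. The exception was Nfkbib, with a log2 difference of -0.18 (95% interval -0.39 to 0.03, adjusted p = 0.336). On all 11 probes both 2 day arrays were below both 2 hour arrays, as for 23.4% of all passing probes. After normexp 6 probes were lower, where 2.07% of passing probes were. Leaving out 2 day replicate 2 likewise gave 6.

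The brighter Nfkbie probe fell by 1.30 on the log2 scale between the exposures (SE 0.10, adjusted p = 3.51e-09), the brighter Nfkbia probe by 1.11 (SE 0.10, adjusted p = 2.52e-08) and Relb by 1.10 (SE 0.10, adjusted p = 3.96e-08). Bcl3 fell by 0.86 (SE 0.10, adjusted p = 7.23e-07) and Nfkbiz by 0.85 (SE 0.12, adjusted p = 1.58e-05). These 5 and the dimmer Nfkbie probe (-0.59, adjusted p = 0.000124) were called under every alternative. Rela (-0.50, adjusted p = 0.00584), the dimmer Nfkbia probe (-0.45, adjusted p = 0.00558), Nfkbid (-0.34, adjusted p = 0.0254) and Nfkb2 (-0.32, adjusted p = 0.0393) each lost the call after normexp and without at least 1 array. For Rela and the dimmer Nfkbia probe these arrays were replicate 1 of the 2 hour group and replicate 2 of the 2 day group. Nfkbid lost it without any 1 of the 4 arrays, and Nfkb2 without replicate 2 of the 2 hour group or either 2 day array. With the replicate number as a block the Nfkb2 difference was not called either (adjusted p = 0.0558).

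**Figure D3:**
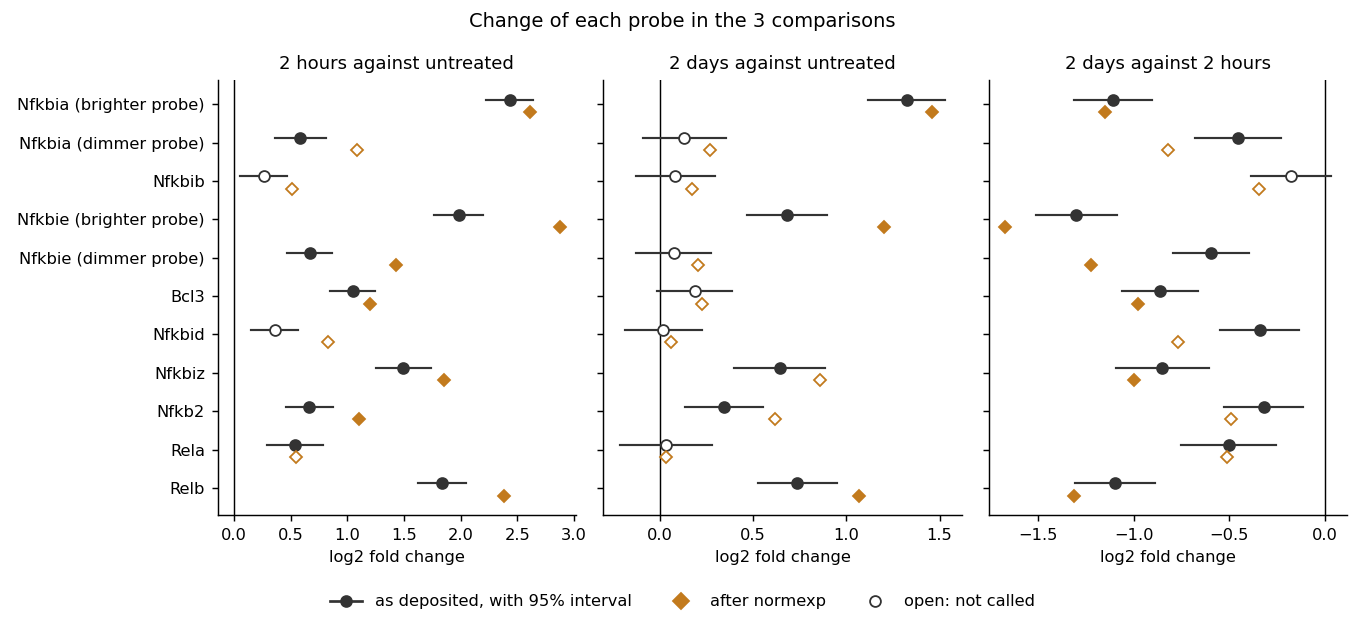
Log2 fold change of each probe in the 3 comparisons, with 95% intervals for the deposited values (circles) and the value after normexp (diamonds), and open symbols for changes that were not called. All circles lie above 0 at 2 hours and below 0 between 2 days and 2 hours, and 5 of 11 are filled at 2 days against unstimulated.

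How much of the early rise remained at 2 days is given as a description of the means, and depends on the scale. On the log2 scale, the change at 2 days was 54.4% of that at 2 hours for the brighter Nfkbia probe, 51.9% for Nfkb2, 43% for Nfkbiz, 40.2% for Relb and 34.5% for the brighter Nfkbie probe. It was 17.9% for Bcl3 and 6.4% for Rela. After normexp these 7 values were 55.8%, 55.7%, 46.2%, 44.8%, 41.8%, 18.7% and 6.36%, in the same order. As a share of the rise in linear intensity they were 34.2%, 46%, 30.7%, 25.9%, 20.4%, 12.9% and 7.57%, so that Nfkb2 and not Nfkbia came first. The dimmer probes gave lower log2 shares than the brighter ones, 22.6% for Nfkbia and 11.1% for Nfkbie. The 3 levels were ordered 2 hours, 2 days, unstimulated for Nfkbia, Nfkbie, Nfkbiz, Nfkb2 and Relb, with each neighbouring pair called on the brighter or sole probe. For Bcl3, Rela and Nfkbid the difference between 2 days and unstimulated was not called, and for Nfkbib no difference was. The order of Nfkb2 rests on calls that several alternatives lose. Differences between genes in the share that remained were not tested.

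Other genes of the pathway came from 4 lists with 71 genes, of which 60 had a passing probe and were tested by their brightest one. At 2 hours 19 of these 60 were higher and 0 lower, where 1.65% of all 13438 genes tested were higher and 0.945% lower. Of the 19 higher genes, 15 lay in the list of known NF-κB target genes, which held 20 tested genes, with a median log2 change of 1.32. The list was chosen with earlier results of these arrays known, so its direction is not independent evidence. Its 3 largest changes were those of the chemokine genes Cxcl1 (15.8-fold) and Ccl2 (12.5-fold) and of the adhesion molecule Icam1 (11.8-fold).

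Another list held the genes that carry the signal from the receptor to IκB. Of 21 tested genes of the receptor complex, the IκB kinase complex and the IκB ubiquitin ligase, 1 was higher at 2 hours. Of all genes tested 1.65% were higher. The median log2 change of the 21 was -0.03. Ripk1 and Chuk, also on this list, had no probe and were not tested. The higher gene was Birc2, a ubiquitin ligase of the receptor complex, which went from 968 and 937 unstimulated to 3898 and 3863 at 2 hours and 1597 and 1702 at 2 days. Its rise was 4.07-fold at 2 hours (adjusted p = 6.55e-13), with 0.84 to 1.11 on the log2 scale on its 3 other probes, all called. At 2 days it was 1.73-fold, and its other probes (0.08 to 0.25) were not called.

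Feedback regulators outside the family had 2 of 11 genes higher at 2 hours. Tnfaip3, which encodes the ubiquitin-editing enzyme A20, read 253 and 243 unstimulated, 1619 and 1777 at 2 hours, and 444 and 448 at 2 days. It rose 6.84-fold at 2 hours and was 1.8-fold above unstimulated at 2 days. Tnip1, which encodes an A20-binding protein, read 523 and 592, then 1022 and 1127, then 1366 and 1346. Unlike the members, it was higher at 2 days than at 2 hours (log2 0.34, SE 0.10, adjusted p = 0.0293), a difference lost under 7 alternatives, among them normexp, cyclic loess and the absence of any of 3 arrays (replicate 1 of the 2 hour group, log2 0.27; 2 day replicate 1, 0.33; 2 day replicate 2, 0.35). Its 3 other probes gave -0.02 to 0.52 at 2 hours and 0.15 to 0.73 at 2 days, with 1 called at each time. Between 2 days and 2 hours these probes gave -0.06 to 0.22, with 0 called.

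Of 8 tested genes for Rel and nuclear cofactors, 1 was higher at 2 hours, the interferon regulatory factor gene Irf1 (6.87-fold). Rel, the c-Rel subunit gene, which is not among the members, read 160 and 137 unstimulated, 191 and 193 at 2 hours, and 137 and 160 at 2 days. Its log2 change at 2 hours was 0.37 (adjusted p = 0.082). At 2 days 13 of the 60 pathway genes were higher and 2 lower, where 6.46% and 5.68% of all genes were. The lower ones were Cebpb (-0.54, adjusted p = 0.000758), a transcription factor of the acute phase response, and Pdlim2 (-0.38, adjusted p = 0.0164), a ubiquitin ligase for nuclear p65, whose other passing probe gave 0.01. Both calls were lost after normexp, and that of Pdlim2 also without unstimulated replicate 2 (-0.34) or 2 day replicate 2 (-0.31). Between the exposures 20 pathway genes were lower at 2 days and 3 higher, where 6.39% and 8.3% of all genes were, and after normexp 13 were called.

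**Figure D4:**
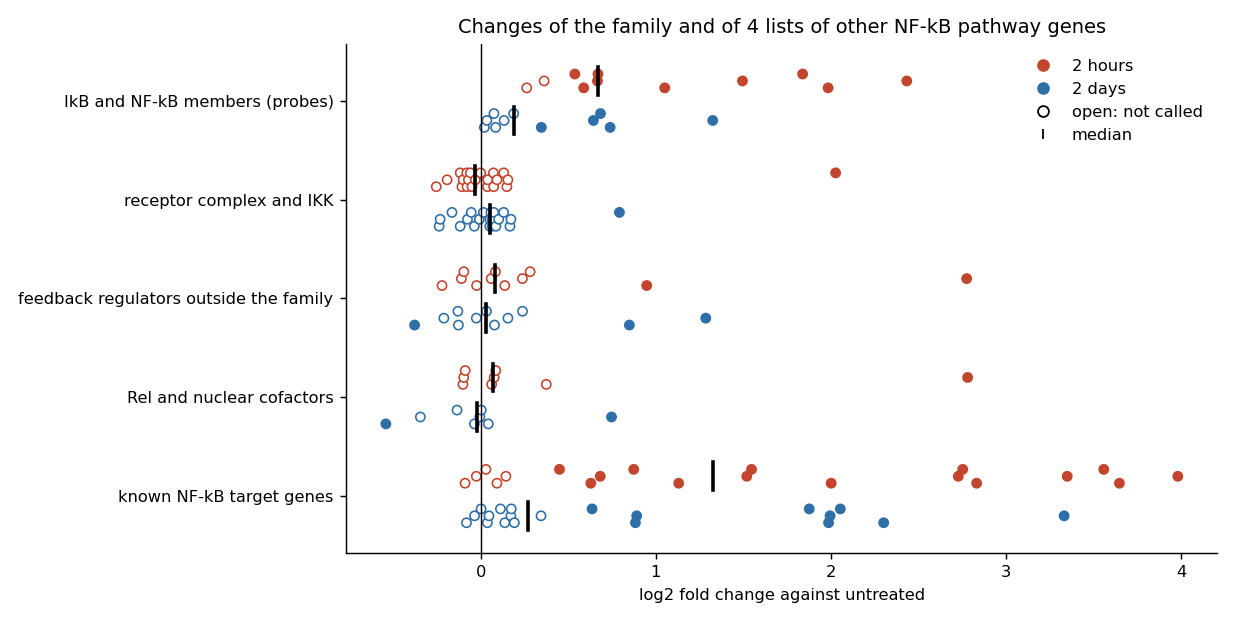
Log2 fold change against unstimulated cells at 2 hours (red) and 2 days (blue) for the 11 member probes and for the tested genes of 4 other pathway lists, with filled points for called changes and a bar at each median. The members and the target genes have medians of 0.67 and 1.32 at 2 hours, while the receptor complex and IκB kinase list stays around 0 apart from Birc2.

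The genes with the most similar profiles were named by the root mean square difference over the 6 arrays, on the log2 scale relative to unstimulated cells. For Nfkbia they were Stx11 (0.26), Tnfaip2 (0.33) and Tnfaip3 (0.35). For Nfkbie they were Birc2 (0.11), Plpp3 (0.24) and Ier3 (0.30), and for Relb the same 3 genes (0.14, 0.18 and 0.19). Nfkbiz was followed by Irf5 (0.19), Fgfr2 (0.20) and Plpp3 (0.21), and Bcl3 by Borcs6 (0.06), Ccn1 (0.09) and Rab32 (0.11). The number of non-member genes within 0.2 was 0 for Nfkbia, 1 for Nfkbie, 3 for Relb, 2 for Nfkbiz and 18 for Bcl3. For the members with small changes likeness picks out little: 61 genes lay within 0.2 of Nfkb2 (nearest Fgd6, Bcl10 and Rhbdf1), 126 of Rela (Igfbp2, Gch1 and Rhbdf2) and 2481 of Nfkbid (Vezf1, Hcar2 and Etfdh). Over 6 arrays in 3 groups this is a description, with no test. Each gene stood by its brightest passing probe, and other probes of the named genes can differ. Averaging the probes of each gene lost the calls of Etfdh, Bcl10 and Igfbp2 at 2 hours and of Fgfr2 and Plpp3 at 2 days.

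Over passing probes, same-group arrays correlated at 0.995 and cross-group pairs at 0.983 to 0.992. The labelled cell type was checked on 11 hepatocyte markers, whose summed intensity was 185547 to 195064 in unstimulated cells, 188907 to 189345 at 2 hours and 114749 to 119800 at 2 days. Most of this sum came from Apoc3, Ahsg, Apoa1 and Ttr (47615, 42732, 41417 and 32501 in unstimulated replicate 1). The Apoc3 value was the highest intensity of the series. The probes of 2 of the 11 markers, Alb and Fgb, lay around the array median on all arrays. At 2 hours 0 of these 11 markers and 0 of 10 tested macrophage markers were called. The tested macrophage probes read only 139 (Timd4) to 234 (Vsig4) in unstimulated replicate 1, where the array median was 143. The absence of calls on them, and their sum, therefore say little. At 2 days 6 hepatocyte markers were lower and 3 macrophage markers higher, where 5.68% of all 13438 genes tested were lower and 6.46% higher. The lower ones were Cps1 (log2 -3.10), Asgr1 (-1.60), Apoc3 (-0.90), Apoa1 (-0.82), Hnf4a (-0.82) and Ahsg (-0.48). Ttr, Apob, Serpina1a, Alb and Fgb were not called, although the other probe of Serpina1a was (-0.47). The 3 macrophage markers were C1qa, C1qb and C1qc (log2 0.36, 0.75 and 0.42). The other tested macrophage markers were not called. Of these, Adgre1 (-0.04), Timd4 (-0.14) and Lyz2 (-0.09, other probes 0.11 and 0.16) lay below 0. Csf1r (0.08), Vsig4 (0.08), Marco (0.30) and Cd163 (0.31) lay above 0. Without 2 day replicate 2 the calls of C1qa (0.28) and C1qc (0.30) were lost, as they were after normexp and without unstimulated replicate 1 (0.40 and 0.32) and, for C1qa, unstimulated replicate 2 (0.31). The summed macrophage level went from 1672 to 1731 in unstimulated cells to 1904 to 2083 at 2 days. Of the macrophage markers, Clec4f, Cd5l, Itgam and Ptprc did not pass the filter. Endothelial markers had 1 of 9 higher and 1 lower at 2 days, stellate cell markers 1 of 5 each way and 1 higher at 2 hours, and bile duct markers 1 of 4 higher, at both times Sox9. Lymphocyte and neutrophil markers had 0 of 2 called. Summed bile duct markers read 1364 to 1380 unstimulated, 1955 to 1987 at 2 hours and 3335 to 3586 at 2 days. In the same order, summed stellate cell markers read 2462 to 2881, 2514 to 2713 and 3192 to 3872. Endothelial sums were 1771 to 1923, 1842 to 2017 and 1793 to 1847, and those of lymphocytes and neutrophils 277 to 285, 272 to 294 and 278 to 297. The part of these shifts in the 2 day values of the members was not tested, and fewer cells of a type cannot be told apart from less RNA per cell.

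**Figure D5:**
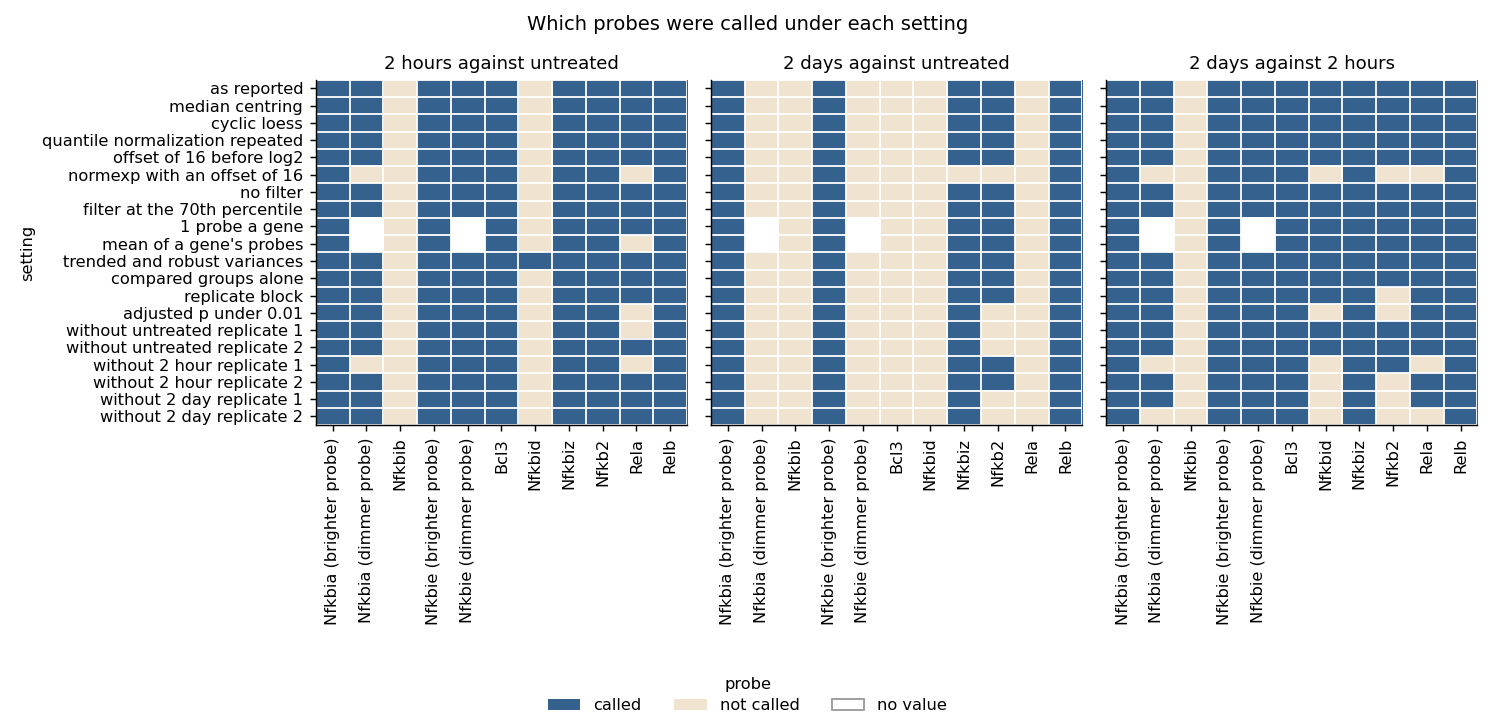
Calls of each of the 11 probes (columns) under each processing setting (rows) in the 3 comparisons, with blue for called, beige for not called and white where a setting gives 1 value per gene. Columns that stay blue throughout are those of the brighter Nfkbia and Nfkbie probes and of Relb in all 3 comparisons, while Rela, Nfkb2, Nfkbid, the dimmer Nfkbia probe and, at 2 days, Nfkbiz change with the setting.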

How the data were processed

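Per the labels, biotinylated cRNA was hybridised to Illumina mouse arrays. The deposited table holds intensities of 45281 probes on a linear scale. For scanner software, background treatment and normalization, the sources used here give nothing. Sorted values of the 6 arrays differ by at most 0.333%, so a between-array normalization had been applied and none was added. The lowest value was 96.5 and medians were 143.16 to 143.22. That no background had been subtracted was inferred from these values alone.

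Probes were named through the platform annotation, updated by Entrez gene: 34885 probes had 1 symbol, 18 several and 10378 none listed. Probes above an array's 50th percentile on at least 2 arrays passed (26272). Log2 intensities of all 6 arrays were fitted in limma 3.58.1 (R 4.3.3; 3 residual degrees of freedom, prior 19.1), and calls required a p below 0.05 after Benjamini-Hochberg adjustment over all passing probes. The script was tested on simulated data. Every member probe is reported. Other genes named are the 3 nearest in profile to a called member and markers a result turns on. Up to 3 of the largest called changes against unstimulated cells in each pathway list are also named. For some counts of 6 or fewer the genes are named, chosen after their values were seen. The called endothelial and stellate cell markers are not named. Members and lists were chosen with earlier results of these data known. Alternatives covered normalization, normexp background correction (offset 16), filter, probe summary, variance model, threshold, a replicate block and each array left out. The comparisons share arrays. The number of arrays limits the precision.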

Additional observations from a re-analysis of the deposited data

Results flagged for a closer look

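The level at 2 days was lower than that at 2 hours on 10 of the 11 probes, by the limma test of the difference between the exposures (adjusted p under 0.05). Of all passing probes 5.49% were lower and 6.09% higher. The calls of Rela, the dimmer Nfkbia probe, Nfkbid and Nfkb2 were lost after normexp. Exposure and time in culture cannot be told apart here. The difference, 2 days minus 2 hours on the log2 scale, was -1.11 and -0.45 for the brighter and the dimmer probe of Nfkbia and -1.30 and -0.59 for those of Nfkbie. It was -0.86 for Bcl3, -0.85 for Nfkbiz and -0.34 for Nfkbid. Among the subunits it was -1.10 for Relb, -0.50 for Rela and -0.32 for Nfkb2. With 2 arrays a group, no array could be tested as standing apart from its group.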

How the results depend on the processing

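Of 24 member values called over the 3 comparisons, 24 kept their direction under each of the 17 to 19 alternatives run per probe and 16 their call. Of the 9 uncalled, 1 passed in any (Nfkbid at 2 hours). Several alternatives could not turn a direction, since they leave each log2 change as it was. These were the threshold, the filters, the variance model, the replicate block and leaving out an array of the group not compared. The fit on the compared groups alone and that on 1 probe per gene did the same. On every called value the arrays of the compared groups did not overlap. Leaving out a compared array, or adding an offset before log2, therefore could not turn these directions either. At 2 hours, 2 days and between them, 496, 2529 and 3043 of all passing probes were called. After normexp these were 112, 725 and 965, on averaging the probes of each gene (over fewer features) 250, 1345 and 1645, at an adjusted p under 0.01 300, 1559 and 1910, and with each array left out 281 to 518, 1637 to 2449 and 1939 to 3181. An array left out leaves a group with 1, assumed to vary like the others. Member probes called after normexp were 3 at 2 days and 6 between the exposures. With each array left out they were 7 to 9, 4 to 5 and 6 to 10 (6 without 2 day replicate 2), and pathway genes between the exposures 17 to 25 (13 after normexp). Other causes of these changes were not tested. Replicate numbers are shared by the groups, but the labels state no pairing. Correlations of same-numbered deviations were -0.12, -0.07 and 0.02, and the replicate block gave 9, 5 and 9 member probes (Nfkb2 lost between the exposures) and 438, 2298 and 2843 of all. Crossed numbers, added after the data were seen, gave 9 member probes at 2 hours. Uncalled values changed sign with an array left out. At 2 days these were the dimmer Nfkbia probe (-0.0097 to 0.28), Nfkbib (-0.0098 to 0.18), Nfkbid (-0.061 to 0.10), Rela (-0.18 to 0.25), Rel (-0.11 to 0.11), Vezf1 (-0.017 to 0.067), Hcar2 (-0.044 to 0.16), Etfdh (-0.074 to 0.089), Igfbp2 (-0.11 to 0.15), Gch1 (-0.15 to 0.10) and Rhbdf2 (-0.17 to 0.033). At 2 hours they were C1qb (-0.0067 to 0.19) and C1qc (-0.051 to 0.14). At 2 days the mean of probes turned Borcs6 (-0.012) and Etfdh (-0.065), and cyclic loess Etfdh (-0.023). Probes close to the array median, such as those of Nfkbid and Nfkbib and the dimmer ones of Nfkbia and Nfkbie, limit what these arrays can show.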
